A study of Bos taurus with 9 samples.

Results

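The 44 bovine genes described here run meiotic maturation. They encode CDK1 with its cyclins, the enzymes that switch CDK1 on and off, the MOS-MAPK and Greatwall branches, the anaphase-promoting complex with its regulators, and the cAMP genes that keep an immature oocyte arrested. They were chosen by symbol, with a rule that uses no measured value, though earlier results of these data were known. All 44 were found among the 17852 genes of the deposited table, and 43 were among the 13206 genes with enough reads to be tested. WEE1, the somatic kinase that inhibits CDK1, had 0 to 9 reads a library and was not tested.

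RNA was sequenced in bulk from cattle oocytes at metaphase II, the stage at which a mature egg waits for the sperm. There were 3 libraries in each of 3 groups, which were oocytes treated with microplastics + taurine, oocytes treated with microplastics alone and control oocytes. Microplastics are small plastic particles and taurine is a sulfur-containing amino acid. The labels used here state no particle type, dose, exposure time, breed, animal age or number of oocytes per library, and no group given taurine alone was analysed here. Nothing in them ties libraries to different animals or cultures, so each p-value reflects the spread between libraries alone, and that spread may be technical. Libraries are called taurine 1 to 3 (microplastics + taurine), microplastics 1 to 3 and control 1 to 3.

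CDK1 bound to cyclin B is the kinase that drives an oocyte from its first arrest through the meiotic divisions. Before maturation cAMP holds it off; at metaphase II it stays active because EMI2, the product of FBXO43, keeps the anaphase-promoting complex (APC/C) from marking cyclin B for destruction, an arrest that MOS-MAPK signalling supports. The Greatwall kinase protects CDK1 substrates by blocking the phosphatase PP2A. A fully grown oocyte transcribes little and works from stored mRNA, so mRNA levels at this stage are largely those of a stored pool.

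Libraries held 21.17 to 22.74 M estimated reads. Values within a gene are given as TMM-scaled CPM (reads relative to the scaled library size), where 3 reads in a library are worth 0.132 to 0.142 CPM, and a change is a log2 difference tested with edgeR's quasi-likelihood test and called at a Benjamini-Hochberg adjusted p under 0.05 over all 13206 genes. A pair of libraries, control 3 and taurine 3, stood apart from their groups. Levels of all tested genes in control 3 correlated at 0.976 and 0.976 with taurine 1 and 2. With control 1 and 2 the correlations were 0.962 and 0.964. Taurine 3 correlated at 0.969 and 0.977 with control 1 and 2, and at 0.951 and 0.962 with taurine 1 and 2. Whether these libraries were exchanged was not tested, and the labels were kept as given. Over the tested members, control 3 lay nearer to taurine 1 and 2 than to control 1 and 2 in 33 of 43 (76.7%, against 63.0% of all tested genes), and taurine 3 lay nearer to control 1 and 2 than to taurine 1 and 2 in 30 of 43 (69.8%, against 62.0%).

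Markers of the oocyte and of other cells were read beside the members. Summed over 12 oocyte markers, the level was 85444 to 112035 CPM in taurine libraries, 40993 to 49087 CPM in microplastics libraries and 92998 to 122044 CPM in control libraries. BTG4, which promotes removal of maternal mRNA in mice, was the largest of them, and without it the other 11 summed to 38462 to 48901 CPM with taurine, 24231 to 28552 CPM with microplastics and 44343 to 55963 CPM in control. The markers did not all move one way. In microplastics minus control edgeR called 7 of 12 lower (GDF9, ZP2, ZP3, OOSP2, BTG4, DPPA3 and H1-8) and 2 higher, ZAR1 by log2 1.00 ± 0.18 (SE, edgeR adjusted p = 0.00276) and NLRP5 by log2 1.01 ± 0.28 (SE, edgeR adjusted p = 0.0229). BMP15, at log2 -0.35 ± 0.22 (SE, edgeR adjusted p = 0.256), KPNA7, at log2 -0.09 ± 0.19 (SE, edgeR adjusted p = 0.757), and ZP4, at log2 -1.22 ± 0.50 (SE, edgeR adjusted p = 0.099), did not pass. In taurine minus microplastics 5 of the 7 were called higher (ZP2, OOSP2, BTG4, DPPA3 and H1-8) and ZAR1 and NLRP5 lower.

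The 12 cumulus and granulosa markers measured summed to 499 to 549 CPM in taurine libraries, 408 to 509.5 CPM in microplastics libraries and 486 to 590.4 CPM in control libraries, which overlapped. Much of that sum was STAR, a cholesterol carrier of steroid-making cells, which did not pass (log2 0.13 ± 0.23 (SE, edgeR adjusted p = 0.716) in microplastics minus control). Without STAR the other 11 summed to 189 to 326 CPM with taurine, 136 to 144 CPM with microplastics and 208 to 331 CPM in control, and the microplastics libraries lay below all the others. Of 10 tested, 4 were called lower and none higher in microplastics minus control: SERPINE2 by log2 -1.80 ± 0.29 (SE, edgeR adjusted p = 0.00124), GJA1 by log2 -1.43 ± 0.30 (SE, edgeR adjusted p = 0.00525), VCAN by log2 -0.57 ± 0.16 (SE, edgeR adjusted p = 0.0229), and INHA (edgeR adjusted p = 0.0464), whose level was at or under 0.0725 CPM in every microplastics library. SERPINE2, VCAN and INHA were called higher in taurine minus microplastics, and AMH had 0 to 10 reads and FSHR 0 to 2. INHA had 15, 8 and 168 reads in taurine 1 to 3, so most of its reads there came from 1 library. TNFAIP6 did not pass, and held 66.1 CPM in control 2, 33.3 CPM in taurine 3 and at most 1.53 CPM elsewhere. The summed markers of leukocytes (3 measured, 4.97 to 5.75, 3.36 to 4.71 and 5.61 to 8.72 CPM in the taurine, microplastics and control libraries), erythroid cells (1 measured, HBA, 13.1 to 15.3, 5.69 to 8.04 and 13 to 24.3 CPM) and endothelium (2 measured, 8.32 to 22.8, 10.1 to 18.9 and 9.04 to 21.9 CPM) were low. CD3E and HBA among them were called lower in microplastics minus control (edgeR adjusted p = 0.0437 and 0.00163), and HBA higher in taurine minus microplastics (edgeR adjusted p = 0.0186). The marker levels moved with the member results below, and their part in them was not tested.

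Levels were compared between genes with the authors' TPM, which corrects for transcript length but carries no TMM scaling between libraries. The most abundant members were the CDK adaptors CKS1B and CKS2, cyclin B1 and MOS. CCNB1 averaged 5746 ± 1394 TPM with taurine, 4670.0 ± 318 TPM with microplastics alone and 6846 ± 964 TPM in control (SD, n = 3 each), and MOS 1860.3 ± 185 TPM with taurine, 1578 ± 311 TPM with microplastics alone and 1470.1 ± 244 TPM in control (SD, n = 3 each). CKS1B averaged 16039 ± 1378 TPM with taurine, 8882 ± 1345 TPM with microplastics alone and 15036 ± 2568 TPM in control (SD, n = 3 each), but the length implied by the ratio of its counts to FPKM was only 163 nt, so its place at the top of the TPM order rests on that length. CDK1 itself was far lower, at 40.7 ± 13.7 TPM with taurine, 57.5 ± 11.7 TPM with microplastics alone and 50.8 ± 6.03 TPM in control (SD, n = 3 each). The oocyte-specific inhibitor WEE2 averaged 389.7 ± 14.5 TPM with taurine, 469 ± 44.9 TPM with microplastics alone and 399.9 ± 83 TPM in control (SD, n = 3 each), while its somatic relative WEE1 stayed at or under 0.2 TPM in every library. Among the APC/C subunits ANAPC11, the RING subunit, averaged 1015 ± 75.7 TPM with taurine, 1310.2 ± 211 TPM with microplastics alone and 799 ± 176 TPM in control (SD, n = 3 each), and its cullin partner ANAPC2 0.323 ± 0.212 TPM with taurine, 0.64 ± 0.386 TPM with microplastics alone and 0.257 ± 0.158 TPM in control (SD, n = 3 each). The regulators of the complex spanned a wide range, with the inhibitor FBXO5 the highest of 4, the co-activator CDC20 next, the inhibitor FBXO43 below it and the co-activator FZR1 the lowest. FBXO5 averaged 814 ± 216 TPM with taurine, 1044 ± 113 TPM with microplastics alone and 688 ± 140.0 TPM in control (SD, n = 3 each). CDC20 averaged 304 ± 45.7 TPM with taurine, 274 ± 20.1 TPM with microplastics alone and 199 ± 45.1 TPM in control (SD, n = 3 each). FBXO43 averaged 46.5 ± 5.11 TPM with taurine, 63.6 ± 3.23 TPM with microplastics alone and 48 ± 5.83 TPM in control (SD, n = 3 each), and FZR1 1.59 ± 0.978 TPM with taurine, 3.04 ± 0.667 TPM with microplastics alone and 1.02 ± 0.599 TPM in control (SD, n = 3 each).

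**Figure D1:**
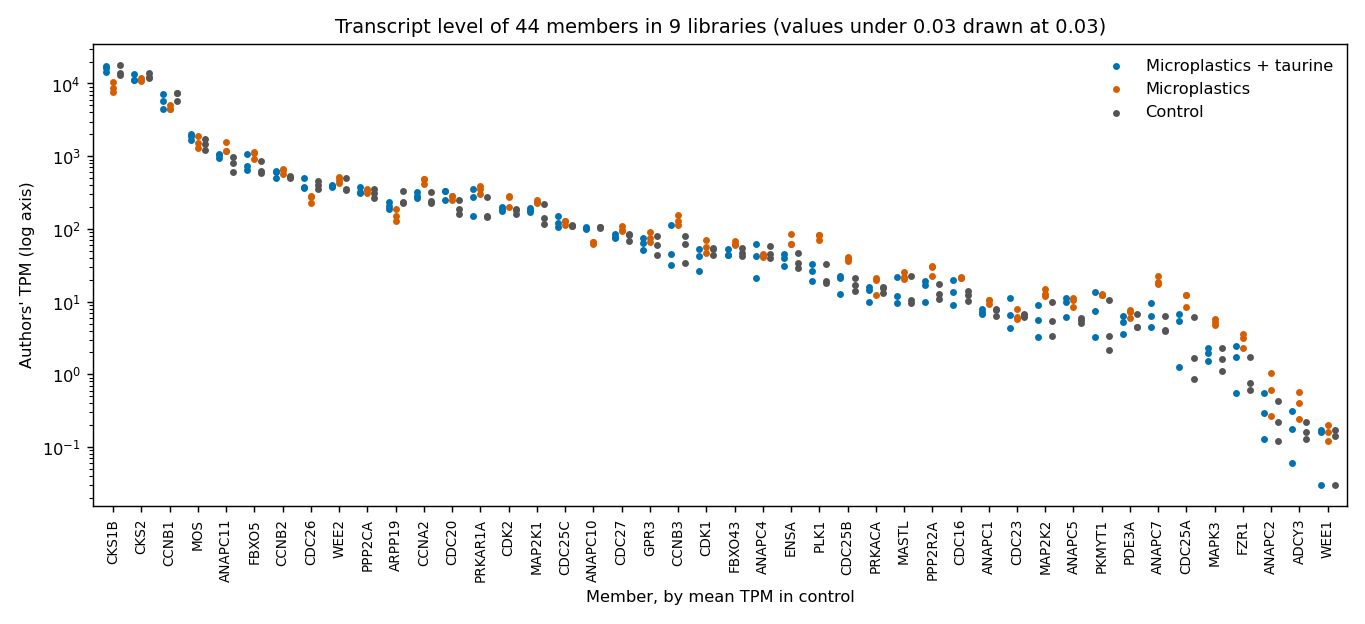
Level of each of the 44 members in TPM (log axis), with 1 point per library and members ordered by their mean in control; blue is microplastics + taurine, orange microplastics and grey control. Levels span from CKS1B, CKS2 and CCNB1 at the left to ANAPC2, ADCY3 and WEE1 at the right, and a TPM carries no TMM scaling, so groups are compared in CPM and not here.

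On the TMM scale, cyclin B1, both CKS adaptors, ARPP19, PPP2CA and the APC/C subunits ANAPC10 and CDC26 were lower in microplastics than in control libraries. PLK1, MAPK3 and ANAPC7 were higher. That is 7 members lower and 3 higher of 43 tested, with 33 not passing. The calls of CKS2 and PPP2CA did not hold with scaling by library size alone. Levels are relative to the other RNA of a library and give no amount per oocyte. Over all 13206 genes 24.3% were called in this comparison, 9.68% higher and 14.7% lower; of the members 23.3% were called, so the share was near the background. Their fitted changes ran from log2 -1.41 to 1.43 with a median of -0.12, beside a median of 0.04 over all genes. In bulk RNA, fewer cells of a type and less RNA per cell cannot be told apart. The 3 microplastics libraries lay wholly below the 3 control libraries in 15 members (34.9%, background 22.5%) and wholly above them in 7 (16.3%, background 22.4%).

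With taurine added to microplastics, 10 members were higher than with microplastics alone, 2 were lower and 31 did not pass. The background was 14.2%, with 10.1% higher and 4.13% lower, and 27.9% of the members were called. The 10 were CCNB1, CKS1B, CKS2, CDC25C, MOS, ARPP19, PPP2CA, CDC20, ANAPC10 and CDC26, and the 2 were PLK1 and ANAPC7. The median change was log2 0.11, beside -0.02 over all genes, and the taurine libraries lay wholly above the microplastics libraries in 14 members (32.6%, background 18.7%) and wholly below in 4 (9.30%, background 17.4%). This comparison and the preceding one share the microplastics libraries, so opposite signs in them are not independent. Between microplastics + taurine and control no member was called by edgeR, limma-voom or DESeq2 with all 9 libraries, and over all genes edgeR called 0.00757% there. With control 3 and taurine 3 both left out, edgeR called 5.83% of all genes there, and the members then called are given below. With all 9 libraries an unadjusted edgeR p under 0.05 was found for 2 of 43 members, CDC20 and ANAPC5. That is 4.65%, near the 5.69% of all tested genes.

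**Figure D2:**
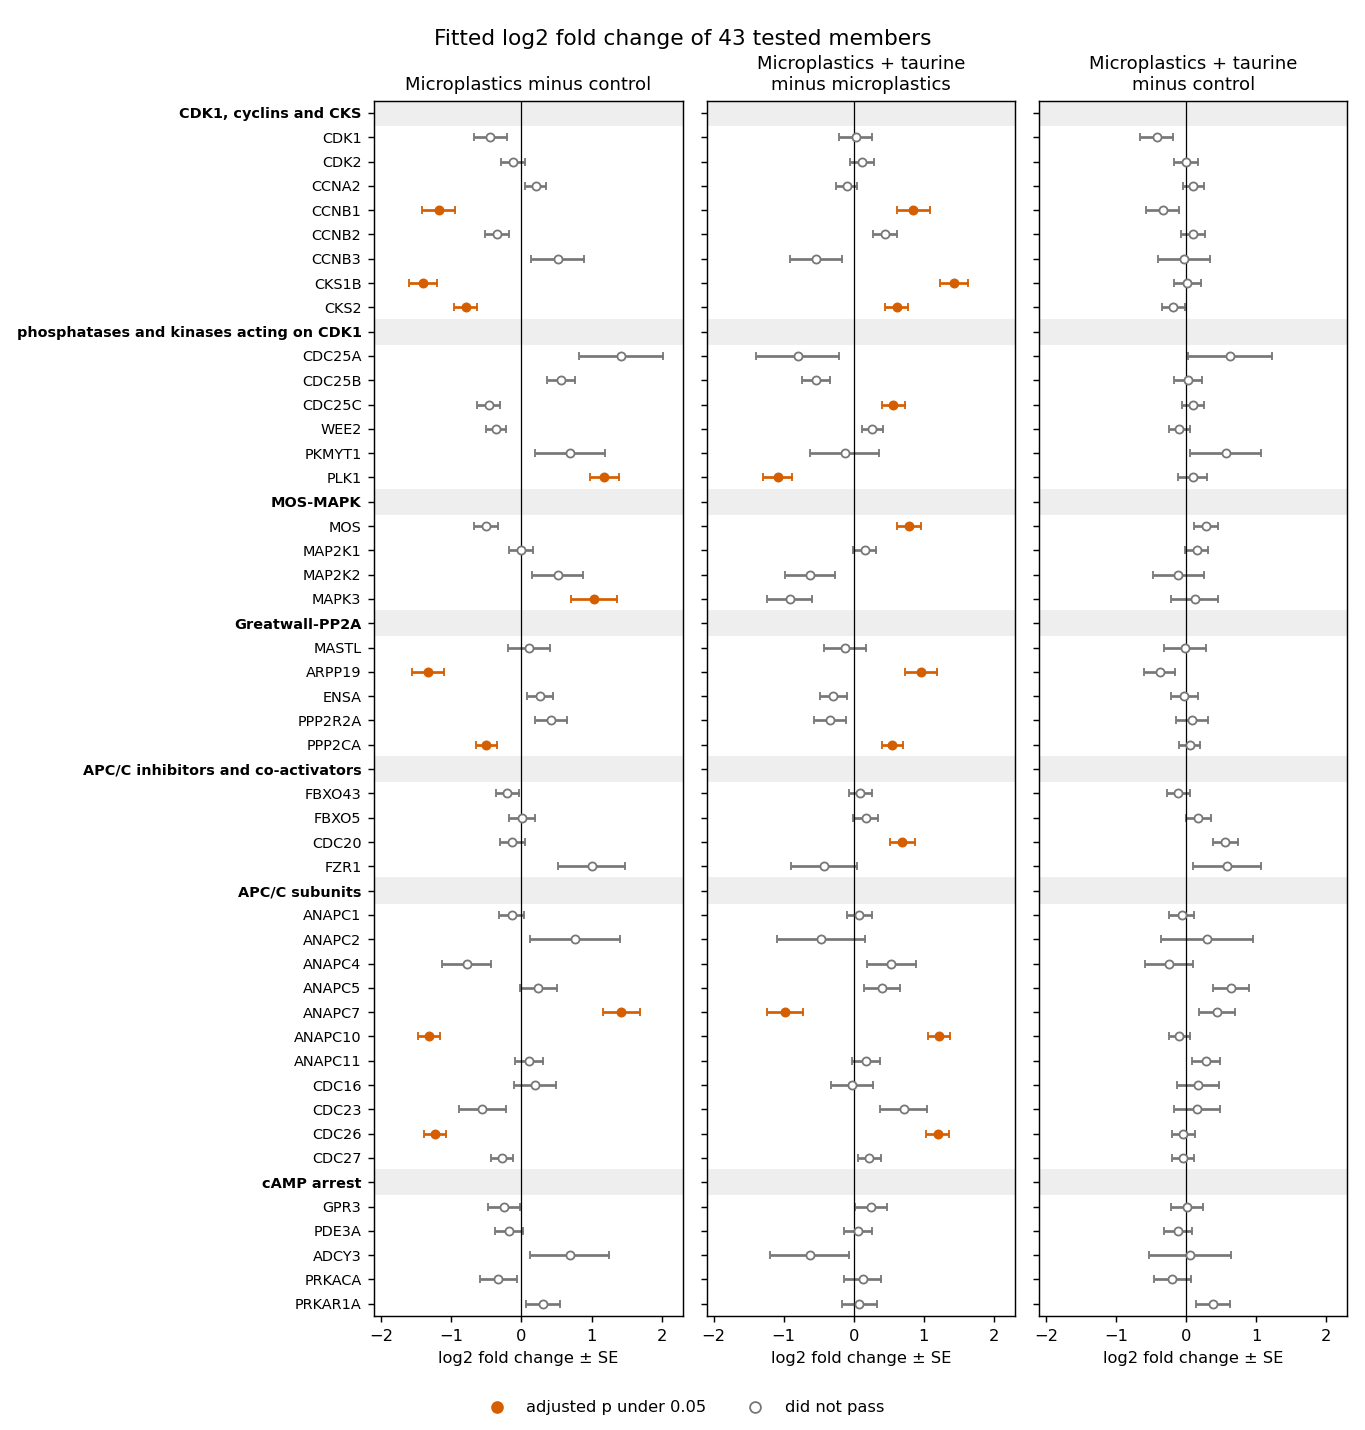
Fitted log2 fold change ± SE of the 43 tested members (x axis) in the 3 comparisons, grouped by role; filled orange points passed at an adjusted p under 0.05 and open grey points did not. The microplastics minus control panel has 7 filled points left of zero and 3 right of it, the middle panel 10 right and 2 left, and the microplastics + taurine minus control panel has none.

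In the CDK1 core, cyclin B1 and both CKS adaptors changed. Of 8 members, CDK1, CDK2, 4 cyclins and 2 CKS proteins, 3 were lower and none higher with microplastics than in control, and the same 3 were higher with taurine than with microplastics alone. Over all tested genes 14.7% were lower in the first comparison and 10.1% higher in the second, and 8 members are few to set beside these shares. CCNB1 stood at 5131, 6740.2 and 9440.4 CPM in the taurine libraries, 3729, 4428 and 3673 CPM in the microplastics libraries and 10484, 9914 and 6457 CPM in the control libraries. Every microplastics library was below every other library, while control 3 and taurine 1 came closest to them. Cyclin B1 is the main activating partner of CDK1. It differed by log2 -1.18 ± 0.24 (SE, edgeR adjusted p = 0.00465) between microplastics and control and by 0.85 ± 0.24 (SE, edgeR adjusted p = 0.0335) between taurine and microplastics, and by -0.33 ± 0.24 (SE, edgeR adjusted p = 0.855) between taurine and control. The call between taurine and microplastics ended without microplastics 1, microplastics 2, microplastics 3, taurine 2 and taurine 3 in turn (edgeR adjusted p = 0.126, 0.0713, 0.13, 0.0707 and 0.117, log2 0.59 to 0.92), and also with scaling by library size alone (log2 0.40, edgeR adjusted p = 0.127) and with the length trend removed (log2 0.72, edgeR adjusted p = 0.0612). Its reads made up 0.492% to 0.794% of all reads in taurine libraries, 0.456% to 0.537% in microplastics libraries and 0.628% to 0.875% in control libraries.

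CKS1B and CKS2 are small adaptors that dock CDK complexes onto phosphorylated substrates, and CKS2 is required in mice for the first meiotic division. CKS1B measured 2684, 2595 and 2484 CPM with taurine, 1131, 871 and 889 CPM with microplastics alone and 3279, 2481 and 1914 CPM in control. The taurine libraries held 5117, 4298 and 4832 CPM of CKS2, the microplastics libraries 3277, 3176 and 2874 CPM and the control libraries 6463, 5198 and 4518 CPM. In both, the microplastics libraries formed a group below all the others. CKS1B changed by log2 -1.41 ± 0.20 (SE, edgeR adjusted p = 0.00061) in microplastics minus control and 1.42 ± 0.20 (SE, edgeR adjusted p = 0.000807) in taurine minus microplastics, calls that held without any 1 library and under every alternative run, the first of them at log2 -0.56 with the length trend removed. CKS2 changed by log2 -0.79 ± 0.17 (SE, edgeR adjusted p = 0.00544) and 0.61 ± 0.17 (SE, edgeR adjusted p = 0.0291) in the same order. Its call in microplastics minus control ended with scaling by library size alone (log2 -0.30, edgeR adjusted p = 0.0925) and with the length trend removed (log2 -0.28, edgeR adjusted p = 0.2). In taurine minus microplastics it also ended under both (log2 0.18, edgeR adjusted p = 0.33, and log2 0.25, edgeR adjusted p = 0.31), and without microplastics 1, microplastics 2, microplastics 3, taurine 1 and taurine 3 in turn (edgeR adjusted p = 0.0808, 0.0882, 0.128, 0.0568 and 0.0615, log2 0.54 to 0.63). CKS1B and CKS2 are close paralogs, and how reads that fit both were assigned is not given in the sources used here, so the split between them is uncertain.

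CDK1 itself did not pass in any comparison. CDK1 stood at 51.4, 42.3 and 28.3 CPM in the taurine libraries, 32.6, 40.4 and 47.1 CPM in the microplastics libraries and 64.5, 49.2 and 49.4 CPM in the control libraries. The microplastics libraries lay just below the control libraries, and the taurine libraries, with taurine 3 the lowest of all 9, overlapped both. Its differences were log2 -0.44 ± 0.24 (SE, edgeR adjusted p = 0.187) in microplastics minus control, 0.02 ± 0.24 (SE, edgeR adjusted p = 0.957) in taurine minus microplastics and -0.42 ± 0.24 (SE, edgeR adjusted p = 0.855) in taurine minus control. CCNB2, the other B-type cyclin of the meiotic divisions, had changes of -0.35 ± 0.17 (SE, edgeR adjusted p = 0.157), 0.45 ± 0.17 (SE, edgeR adjusted p = 0.104) and 0.10 ± 0.17 (SE, edgeR adjusted p = 0.931) in the same order. Its level was 607, 775 and 833 CPM in the taurine libraries, 485, 604 and 535 CPM in the microplastics libraries and 721, 743 and 600.4 CPM in control libraries. Its taurine libraries, at 607 CPM or more, did not overlap the microplastics libraries, whose highest was 604 CPM. Cyclin A2 (CCNA2), at 398 to 517 CPM over all libraries, and CDK2, a kinase better known from DNA replication, at 156 to 245 CPM, also did not pass, with CDK2 within log2 0.12 of zero in all 3 comparisons. CCNB3, an atypical cyclin needed in mouse oocytes for the first anaphase, was wide apart in the taurine group, at 384, 161 and 125 CPM, against 287, 332 and 357 CPM with microplastics and 285, 140.3 and 258 CPM in control. Without taurine 1 its difference between taurine and microplastics was called (log2 -1.18, edgeR adjusted p = 0.0158), as was that of CCNB2 (log2 0.57, edgeR adjusted p = 0.0387).

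**Figure D3:**
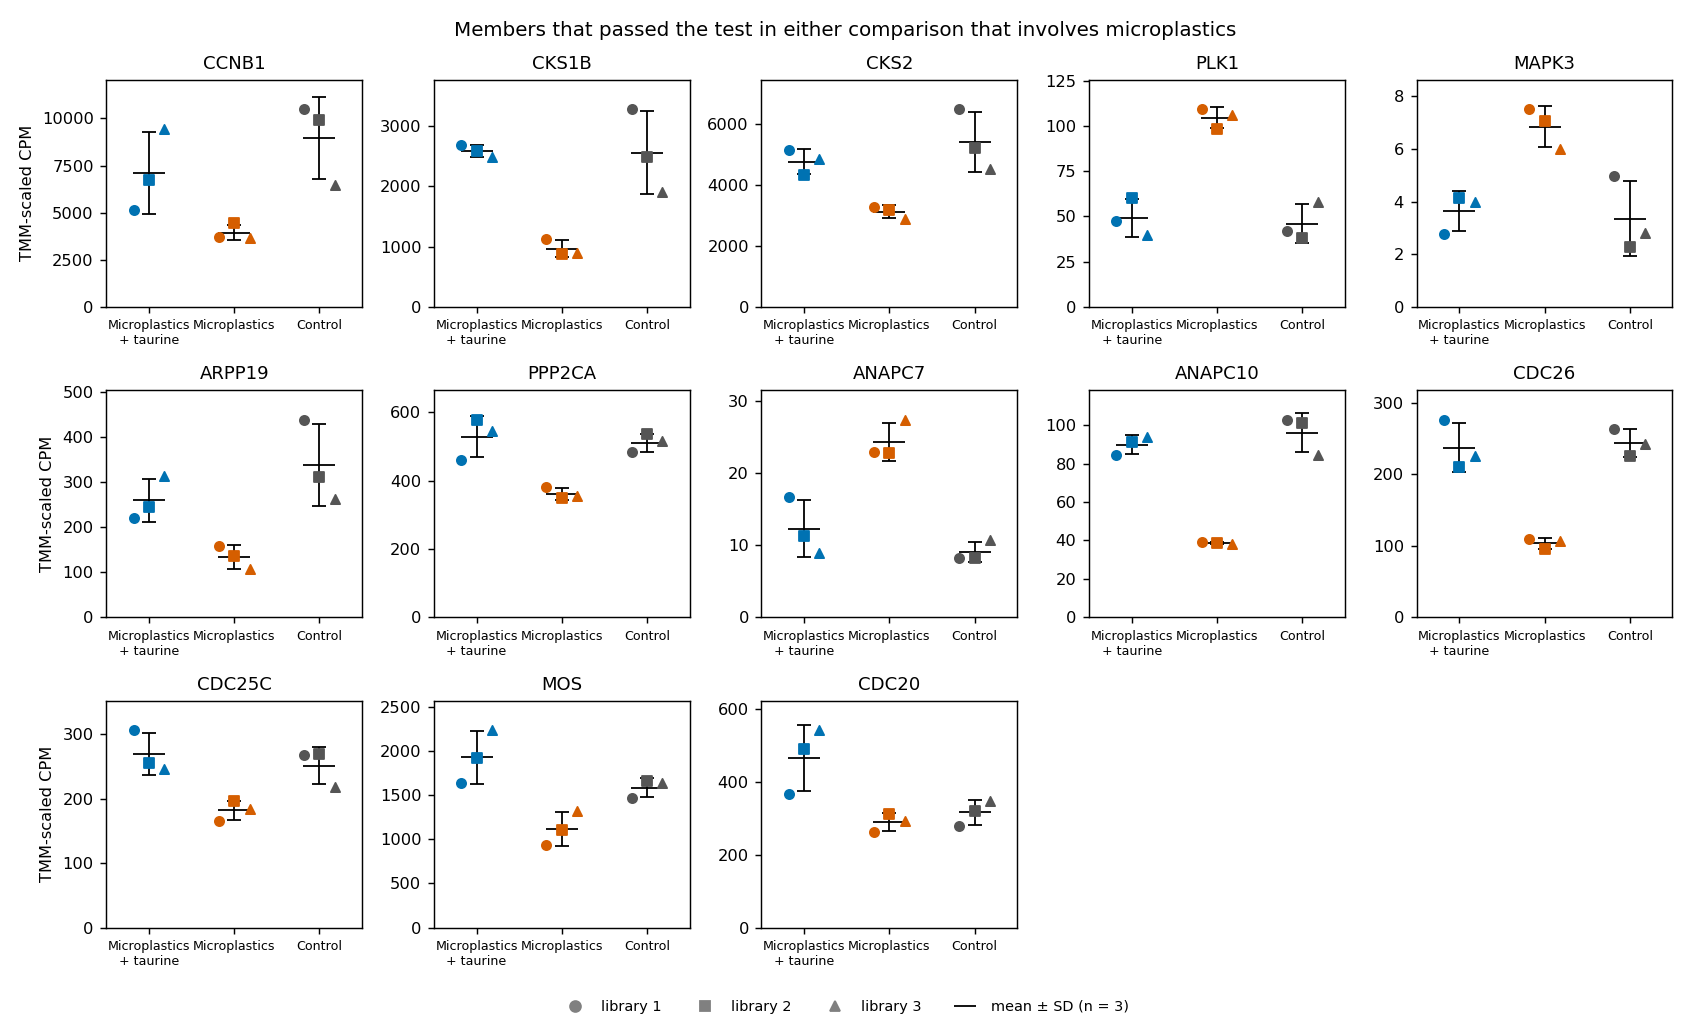
TMM-scaled CPM (y axis, starting at 0) of the 13 members called in a comparison that involves microplastics, with 1 symbol per library and the mean ± SD (n = 3) as bars; the microplastics + taurine group is left, microplastics in the middle and control right. In 12 panels the 3 microplastics libraries lie wholly below or wholly above the other 6; in CDC20 they lie beside control, under the taurine libraries.

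Among the enzymes that act on CDK1, 6 of 7 were tested. PLK1, the polo kinase that activates CDC25 and restrains the inhibitory kinases, was the one called in microplastics minus control (background 24.3%). PLK1 stood at 47.7, 60.3 and 39.7 CPM in the taurine libraries, 109, 98.1 and 106 CPM in the microplastics libraries and 42, 38.2 and 58 CPM in the control libraries. All 3 microplastics libraries exceeded all the others, with control 3 and taurine 2 next below. The differences were log2 1.18 ± 0.21 (SE, edgeR adjusted p = 0.00213) in microplastics minus control and -1.09 ± 0.21 (SE, edgeR adjusted p = 0.00517) in taurine minus microplastics, and both calls held without any 1 library and under every alternative run. CDC25C, a phosphatase that removes the inhibitory phosphates of CDK1, was higher with taurine than with microplastics alone, by log2 0.56 ± 0.16 (SE, edgeR adjusted p = 0.0361). Its level was 306, 255 and 246 CPM in the taurine libraries, 166, 196 and 184 CPM in the microplastics libraries and 267, 269 and 218 CPM in control libraries. No microplastics library reached the lowest of the others, control 3. That call ended without control 2, microplastics 1, microplastics 2, microplastics 3, taurine 1 and taurine 2 in turn (edgeR adjusted p = 0.0524, 0.151, 0.0809, 0.118, 0.0775 and 0.0665, log2 0.46 to 0.61), and with scaling by library size alone (log2 0.14, edgeR adjusted p = 0.521), without the filter on low counts (log2 0.56, edgeR adjusted p = 0.0511) and with the compared groups fitted alone (log2 0.55, edgeR adjusted p = 0.0512). Between microplastics and control CDC25C was just outside the threshold, at log2 -0.47 ± 0.16 (SE, edgeR adjusted p = 0.0526), and inside it with DESeq2 (log2 -0.50, DESeq2 adjusted p = 0.0256). Its mean TPM, without TMM scaling, was not lower with microplastics, at 122.7 against 110.7 in control.

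CDC25B, the phosphatase that mouse oocytes need to resume meiosis, did not pass in any comparison. CDC25B measured 54.8, 58.3 and 37.1 CPM with taurine, 67.7, 80.1 and 69.9 CPM with microplastics alone and 52.9, 42.1 and 52.8 CPM in control. The microplastics libraries were above all 6 others, and the differences were log2 0.56 ± 0.20 (SE, edgeR adjusted p = 0.0595) in microplastics minus control, -0.53 ± 0.20 (SE, edgeR adjusted p = 0.0963) in taurine minus microplastics and 0.02 ± 0.20 (SE, edgeR adjusted p = 0.988) in taurine minus control. WEE2, the oocyte kinase that phosphorylates and inhibits CDK1, had changes of -0.36 ± 0.15 (SE, edgeR adjusted p = 0.0949), 0.26 ± 0.15 (SE, edgeR adjusted p = 0.265) and -0.10 ± 0.15 (SE, edgeR adjusted p = 0.921) in the same order. Its level was 1101, 1089 and 1157 CPM in the taurine libraries, 1012, 964 and 812 CPM in the microplastics libraries and 1186, 1093 and 1306 CPM in control libraries. The microplastics libraries were again on 1 side of all the others, here below. Over the members, the 3 microplastics libraries were above the 6 other libraries in 4 (CDC25B, PLK1, MAPK3 and ANAPC7; 9.30%, background 12.8%) and below them in 11 (25.6%, background 15.3%). CDC25A and PKMYT1, a membrane-bound inhibitory kinase, did not pass and are described with the libraries that stood apart.

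In the MOS-MAPK branch 1 of 4 members was called in each of the comparisons with microplastics. The background was 24.3% in microplastics minus control and 14.2% in taurine minus microplastics. MOS, the oocyte kinase at the head of the cascade, was higher with taurine than with microplastics alone. MOS stood at 1632, 1921 and 2233 CPM in the taurine libraries, 929, 1109 and 1315 CPM in the microplastics libraries and 1462, 1657 and 1634 CPM in the control libraries. Every microplastics library was below every other. MOS differed by log2 0.79 ± 0.18 (SE, edgeR adjusted p = 0.0114) in taurine minus microplastics, by -0.50 ± 0.18 (SE, edgeR adjusted p = 0.0542) in microplastics minus control and by 0.28 ± 0.17 (SE, edgeR adjusted p = 0.855) in taurine minus control. The call ended without microplastics 1 and microplastics 2 in turn (edgeR adjusted p = 0.0669 and 0.0532, log2 0.65 to 0.77) and with scaling by library size alone (log2 0.35, edgeR adjusted p = 0.127). Between microplastics and control MOS passed with DESeq2 (log2 -0.54, DESeq2 adjusted p = 0.0291). In TPM, which carries no TMM scaling, its mean was not lower with microplastics, at 1578 TPM against 1470 TPM in control. Unscaled reads of MOS overlapped, at 24631, 30612 and 37097 in microplastics 1 to 3 and 26847, 31356 and 34282 in control 1 to 3. The lower level of MOS was thus seen with TMM scaling and not in these values. MAPK3 (ERK1), at the end of the cascade, was higher with microplastics than in control, on a low level. Its level was 2.76, 4.15 and 3.99 CPM in the taurine libraries, 7.51, 7.07 and 5.99 CPM in the microplastics libraries and 4.96, 2.27 and 2.81 CPM in control libraries. The microplastics libraries lay above all the others, with control 1 next. It differed by log2 1.03 ± 0.33 (SE, edgeR adjusted p = 0.0386) in microplastics minus control and by -0.92 ± 0.33 (SE, edgeR adjusted p = 0.0829) in taurine minus microplastics. The call in microplastics minus control ended without control 2, control 3, microplastics 1, microplastics 2, microplastics 3 and taurine 2 in turn (edgeR adjusted p = 0.139, 0.0704, 0.108, 0.0912, 0.0682 and 0.0532, log2 0.82 to 1.14), with control 3 and taurine 3 both left out (log2 0.94, edgeR adjusted p = 0.0501) and with the length trend removed (log2 0.96, edgeR adjusted p = 0.0554). The kinases between them did not pass. MAP2K1 (MEK1) held 284 to 424 CPM over all libraries and MAP2K2 (MEK2) 4.92 to 14.1 CPM.

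In the Greatwall branch 2 of 5 members, ARPP19 and PPP2CA, were lower with microplastics than in control (background 14.7%) and higher with taurine than with microplastics alone (background 10.1%). MASTL is Greatwall, which phosphorylates ARPP19 and ENSA so that they inhibit PP2A with a B55 subunit. ARPP19 stood at 221, 246 and 313 CPM in the taurine libraries, 158, 137 and 106 CPM in the microplastics libraries and 439, 312 and 262 CPM in the control libraries. The microplastics libraries were the lowest 3, and control 1 the highest. ARPP19 differed by log2 -1.33 ± 0.23 (SE, edgeR adjusted p = 0.00173) in microplastics minus control, a call that held without any 1 library and under every alternative run, and by 0.96 ± 0.23 (SE, edgeR adjusted p = 0.0151) in taurine minus microplastics. The call in taurine minus microplastics ended without microplastics 2 and microplastics 3 in turn (edgeR adjusted p = 0.0569 and 0.0809, log2 0.80 to 0.96) and with scaling by library size alone (log2 0.51, edgeR adjusted p = 0.0743). ENSA, the sister substrate, held 64.3 to 79.9 CPM with taurine, 76.1 to 107 CPM with microplastics and 60.5 to 83.2 CPM in control, and did not pass. MASTL had differences of log2 0.11 ± 0.30 (SE, edgeR adjusted p = 0.824), -0.13 ± 0.30 (SE, edgeR adjusted p = 0.816) and -0.02 ± 0.30 (SE, edgeR adjusted p = 0.996) in microplastics minus control, taurine minus microplastics and taurine minus control. Its level was 51.2, 28.7 and 25.1 CPM in the taurine libraries, 36.8, 36.2 and 41.6 CPM in the microplastics libraries and 26.7, 28.2 and 51.6 CPM in control libraries. Taurine 1 and control 3 were the high libraries of their groups.

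PPP2CA, a catalytic subunit of PP2A, changed by less than ARPP19. The taurine libraries held 462, 578 and 546 CPM of PPP2CA, the microplastics libraries 381, 349 and 355 CPM and the control libraries 483, 536 and 515 CPM. The 3 microplastics libraries were the lowest, without overlap. It differed by log2 -0.50 ± 0.15 (SE, edgeR adjusted p = 0.0285) in microplastics minus control and by 0.55 ± 0.15 (SE, edgeR adjusted p = 0.0279) in taurine minus microplastics. Its call in microplastics minus control ended without control 1, control 2, microplastics 1, microplastics 2 and microplastics 3 in turn (edgeR adjusted p = 0.0582, 0.0966, 0.0682, 0.0995 and 0.101, log2 -0.46 to -0.54) and with scaling by library size alone (log2 -0.02, edgeR adjusted p = 0.92). In taurine minus microplastics it ended without microplastics 1, microplastics 2, microplastics 3, taurine 2 and taurine 3 in turn (edgeR adjusted p = 0.0779, 0.107, 0.11, 0.0951 and 0.0692, log2 0.48 to 0.57), with scaling by library size alone (log2 0.11, edgeR adjusted p = 0.573), with control 3 and taurine 3 both left out (log2 0.51, edgeR adjusted p = 0.0514) and with the length trend removed (log2 0.47, edgeR adjusted p = 0.0567). PPP2CA has a near-identical paralog, PPP2CB, whose reads could be exchanged with it, so its values are uncertain. The B55 subunit PPP2R2A, at 19.9 to 39.8 CPM over all libraries, did not pass.

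The regulators of the APC/C were called in none of 4 members between microplastics and control by edgeR, limma-voom or DESeq2, and none had an unadjusted edgeR p under 0.05. Between taurine and microplastics 1 passed (background 14.2%). CDC20, the co-activator that brings substrates to the complex at anaphase, was that gene. CDC20 stood at 365, 489 and 541 CPM in the taurine libraries, 262, 311 and 291 CPM in the microplastics libraries and 279, 320.2 and 348 CPM in the control libraries. The taurine libraries were above all 6 others, and microplastics and control overlapped. CDC20 differed by log2 0.69 ± 0.18 (SE, edgeR adjusted p = 0.0231) in taurine minus microplastics, -0.13 ± 0.18 (SE, edgeR adjusted p = 0.618) in microplastics minus control and 0.56 ± 0.18 (SE, edgeR adjusted p = 0.855) in taurine minus control. The call in taurine minus microplastics ended without microplastics 1, microplastics 2, microplastics 3, taurine 2 and taurine 3 in turn (edgeR adjusted p = 0.109, 0.0606, 0.0857, 0.0707 and 0.0773, log2 0.57 to 0.73), with scaling by library size alone (log2 0.25, edgeR adjusted p = 0.293) and with control 3 and taurine 3 both left out (log2 0.56, edgeR adjusted p = 0.0524). Of 43 members it was the only one whose taurine libraries all lay above the control libraries (2.33%, background 4.58%), and none had them all below (background 4.57%).

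FBXO43 (EMI2) is the inhibitor that holds the metaphase II arrest. Its level was 116, 117 and 157 CPM in the taurine libraries, 116, 126 and 124 CPM in the microplastics libraries and 151, 131 and 139 CPM in control libraries. Its microplastics libraries lay just under the control libraries and overlapped the taurine libraries. The differences were log2 -0.20 ± 0.17 (SE, edgeR adjusted p = 0.394) in microplastics minus control, 0.09 ± 0.17 (SE, edgeR adjusted p = 0.756) in taurine minus microplastics and -0.11 ± 0.17 (SE, edgeR adjusted p = 0.92) in taurine minus control. FBXO5 (EMI1), its mitotic relative, held 753 to 1093 CPM with taurine, 678 to 875 CPM with microplastics and 738 to 845 CPM in control, which overlapped. FZR1 (CDH1), the co-activator of the complex outside M phase, was at 0.93 to 3.89 CPM over all libraries and did not pass.

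Subunits of the APC/C itself moved in both directions. Of 11 subunits tested, 2 were lower and 1 higher with microplastics than in control (background 14.7% and 9.68%). With taurine the 2 were higher and the 1 lower than with microplastics alone (background 10.1% and 4.13%). ANAPC10 forms part of the site that recognises substrates. Its level was 84.8, 91.2 and 94.1 CPM in the taurine libraries, 39.4, 38.5 and 38.3 CPM in the microplastics libraries and 103, 101 and 84.7 CPM in control libraries. The microplastics values lay close together and far below the rest, and control 3 and taurine 1 were the lowest of the others. ANAPC10 differed by log2 -1.31 ± 0.16 (SE, edgeR adjusted p = 0.000194) in microplastics minus control and 1.22 ± 0.16 (SE, edgeR adjusted p = 0.000458) in taurine minus microplastics. CDC26 is a small subunit that steadies CDC16. CDC26 measured 276, 210.4 and 225 CPM with taurine, 109, 95 and 107 CPM with microplastics alone and 264, 226 and 242 CPM in control. Its microplastics libraries were again the lowest 3. CDC26 differed by log2 -1.23 ± 0.16 (SE, edgeR adjusted p = 0.000359) and 1.20 ± 0.16 (SE, edgeR adjusted p = 0.000642) in the same order. All 4 of these calls held without any 1 library and under every alternative run.

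ANAPC7, a subunit of the arm that holds the co-activator, was the one that rose with microplastics. Its level was 16.7, 11.3 and 8.86 CPM in the taurine libraries, 23, 22.8 and 27.4 CPM in the microplastics libraries and 8.28, 8.19 and 10.7 CPM in control libraries. The microplastics libraries were above all the others, and taurine 1 was the nearest. ANAPC7 differed by log2 1.43 ± 0.26 (SE, edgeR adjusted p = 0.00247) in microplastics minus control, which held without any 1 library and under every alternative run, and by -0.99 ± 0.26 (SE, edgeR adjusted p = 0.024) in taurine minus microplastics, which ended without microplastics 1, microplastics 2, microplastics 3, taurine 2 and taurine 3 in turn (edgeR adjusted p = 0.0633, 0.0593, 0.0952, 0.0842 and 0.0789, log2 -0.80 to -1.05). The other 8 subunits did not pass in any comparison. The neighbours of ANAPC7 in that arm were CDC16 at 16.6 to 41.8 CPM over all libraries, CDC23 at 9.04 to 28.5 CPM and CDC27 at 320.2 to 463 CPM. The scaffold subunits ANAPC1, ANAPC4 and ANAPC5 were at 38.6 to 54 CPM, 49.3 to 166 CPM and 12.9 to 27.8 CPM. The catalytic pair were ANAPC11 at 447 to 704 CPM and ANAPC2 at 0.328 to 1.74 CPM, so ANAPC2 rests on few reads. ANAPC4 was called lower in microplastics minus control with only those groups fitted (log2 -0.78, edgeR adjusted p = 0.0167) and without taurine 1 (log2 -0.78, edgeR adjusted p = 0.0297) or taurine 3 (log2 -0.78, edgeR adjusted p = 0.0411). Without taurine 1, ANAPC4 and CDC23 were called higher in taurine minus microplastics (log2 0.87, edgeR adjusted p = 0.0392, and log2 1.01, edgeR adjusted p = 0.0375).

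None of the 5 cAMP genes passed in any comparison with edgeR, limma-voom or DESeq2, or had an unadjusted edgeR p under 0.05. GPR3, the receptor that keeps cAMP high in the arrested oocyte, held 71.5 to 116 CPM with taurine, 64.9 to 96.5 CPM with microplastics and 72.9 to 108 CPM in control. PDE3A, the phosphodiesterase that removes cAMP when maturation begins, differed by log2 -0.17 ± 0.20 (SE, edgeR adjusted p = 0.556) in microplastics minus control, 0.06 ± 0.20 (SE, edgeR adjusted p = 0.88) in taurine minus microplastics and -0.12 ± 0.20 (SE, edgeR adjusted p = 0.932) in taurine minus control. Its level was 42.9, 36.2 and 27.5 CPM in the taurine libraries, 37.9, 31 and 33.6 CPM in the microplastics libraries and 36.2, 35.7 and 43.7 CPM in control libraries. All 3 groups overlapped. ADCY3, an adenylyl cyclase, stood at 0.219 to 1.32 CPM over all libraries, and PRKACA, the catalytic subunit of protein kinase A, at 18 to 38.1 CPM. PRKAR1A, a regulatory subunit of that kinase, ran 405, 323 and 199 CPM in the taurine libraries, 324, 267 and 287 CPM in the microplastics libraries and 205, 202 and 303 CPM in the control libraries, with taurine 3 and control 3 each near the other group.

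Control 3 and taurine 3 changed what could be called. CDC25A, a CDC25 phosphatase of low abundance, stood at 9.41, 12.2 and 2.52 CPM in the taurine libraries, 15.6, 11.3 and 15.1 CPM in the microplastics libraries and 1.85, 3.38 and 10.4 CPM in the control libraries. PKMYT1 measured 22.7, 12.9 and 6.18 CPM with taurine, 15.1, 16.3 and 14.5 CPM with microplastics alone and 4.41, 6.55 and 17.4 CPM in control. In both, control 3 exceeded control 1 and 2, and taurine 3 was below taurine 1 and 2. With all 9 libraries neither was called. Without control 3, CDC25A was called higher in microplastics minus control (log2 2.43, edgeR adjusted p = 0.00836) and so was PKMYT1 (log2 1.49, edgeR adjusted p = 0.0251). With control 3 and taurine 3 both left out, a choice made with these libraries known to stand apart, 8 members were higher and 10 lower in microplastics minus control (background 19.5% and 18.6%), 8 higher and 2 lower in taurine minus microplastics (9.09% and 4.15%), and 3 higher and 1 lower in taurine minus control (4.64% and 1.19%). In taurine minus control these were CDC25A (log2 2.05, edgeR adjusted p = 0.0068), PKMYT1 (log2 1.70, edgeR adjusted p = 0.0109), PRKAR1A (log2 0.84, edgeR adjusted p = 0.0213) and, lower, CCNB1 (log2 -0.78, edgeR adjusted p = 0.0246). In microplastics minus control the added members were CDC25A, CDC25B, PKMYT1, MAP2K2, FZR1 and PRKAR1A among the higher, and CDC25C, MOS and ANAPC4 among the lower. Both libraries stood closer to the other group in 24 of 43 members (55.8%, against 41.1% of all tested genes). At high abundance this was plain in CCNB1, with control 3 the lowest control library and taurine 3 the highest taurine library. In CCNB2 and ARPP19, too, control 3 was the lowest control library and taurine 3 the highest taurine library.

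**Figure D4:**
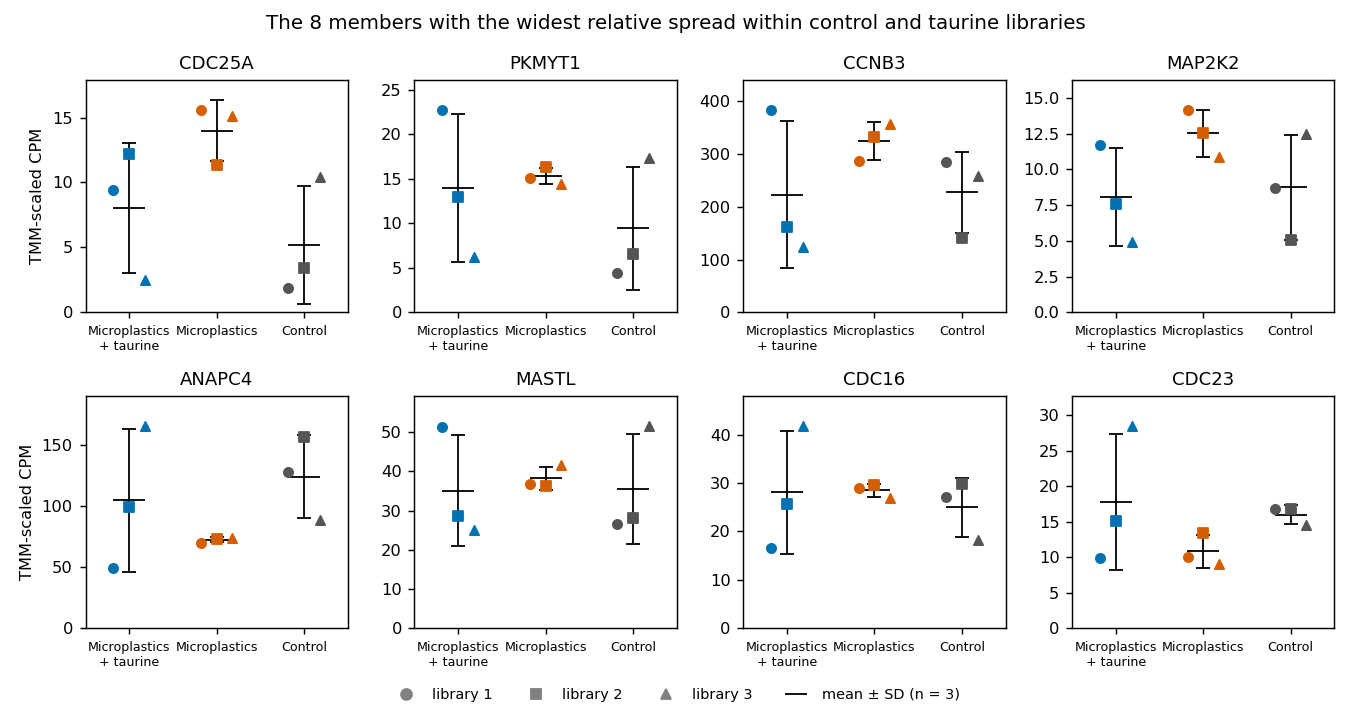
TMM-scaled CPM (y axis, starting at 0) of the 8 members, among those averaging at least 5 CPM, with the highest mean coefficient of variation within the microplastics + taurine and control groups; symbols mark library 1, 2 and 3 and bars the mean ± SD (n = 3). In CDC25A, PKMYT1, MAP2K2 and MASTL the triangle of library 3 is the lowest taurine point and the highest control point. In ANAPC4, CDC16 and CDC23 it is the highest taurine point and the lowest control point. The 8 were chosen after their values were seen.

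Spread within groups was described by the coefficient of variation. The members' median coefficient of variation was 21.7% in taurine libraries, 11% in microplastics libraries and 15.9% in control libraries, beside 24.6%, 16.5% and 23.5% over all tested genes. It reached 87.4% for CDC25A in control and was 1.52% for ANAPC10 in microplastics. This is a description, as members differ from other genes in abundance.

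The called members also differed in transcript length, a property that did not enter the choice of genes. The 7 that were lower with microplastics had implied lengths of 163 to 1608 nt with a median of 892 nt, the 3 that were higher 1858 to 1952 nt with a median of 1916 nt, and the 33 that did not pass a median of 2159 nt. All tested genes showed a trend of the same direction. In 5 classes of equal size by length, the median change in microplastics minus control was log2 -0.35 in the shortest class (median 756 nt), -0.06, 0.08 and 0.19 in the next ones, and 0.26 in the longest (median 5096 nt). In taurine minus microplastics the medians were 0.27, 0.10, 0.02, -0.15 and -0.25 in the same order. With the trend against length removed from the counts, 2 members were higher and 9 lower in microplastics minus control (background 8.04% and 14.1%), and 7 higher and 2 lower in taurine minus microplastics (background 8.55% and 3.16%). CKS1B then changed by log2 -0.56, edgeR adjusted p = 0.0379 in microplastics minus control, and CDC26 by log2 -0.87, edgeR adjusted p = 0.00563. PLK1 (log2 1.12, edgeR adjusted p = 0.00174), ANAPC7 (log2 1.38, edgeR adjusted p = 0.003) and ANAPC10 (log2 -1.08, edgeR adjusted p = 0.000557) kept most of their size. Among the alternatives run, CDC27 was called only there (log2 -0.51, edgeR adjusted p = 0.0481), and WEE2 was called there (log2 -0.54, edgeR adjusted p = 0.0221) and with DESeq2 (log2 -0.39, DESeq2 adjusted p = 0.048).

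**Figure D5:**
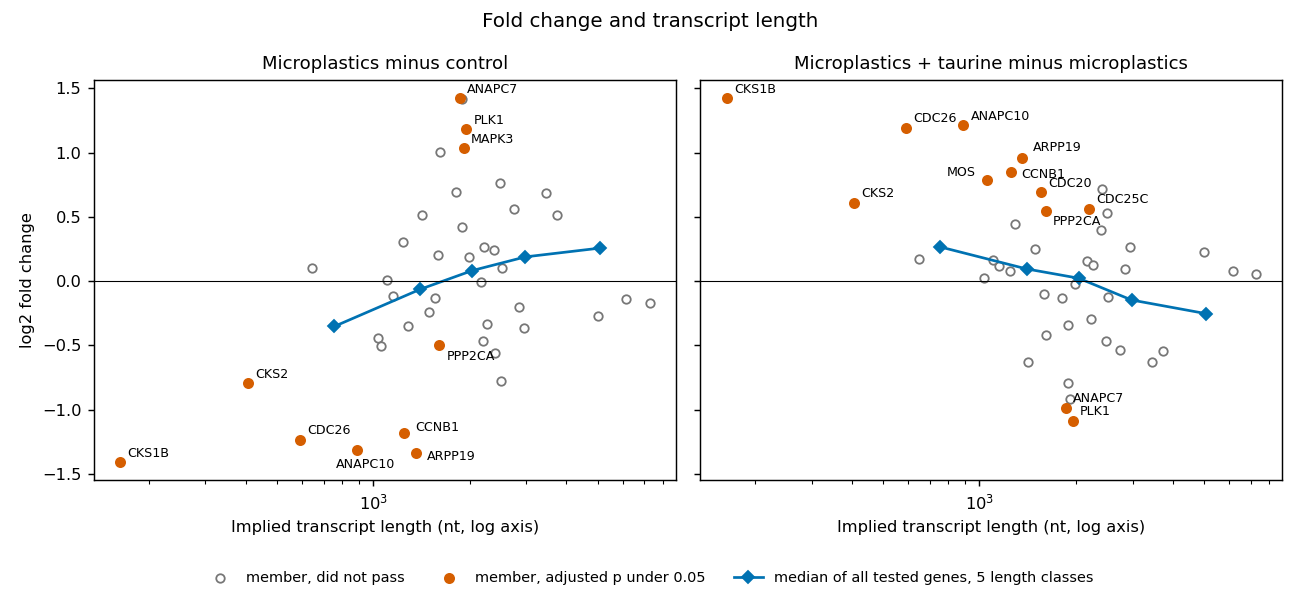
Fitted log2 fold change (y axis) against implied transcript length in nucleotides (log x axis) for the 43 tested members, in microplastics minus control at left and microplastics + taurine minus microplastics at right; filled orange points passed and are named, and blue diamonds are medians of all tested genes in 5 length classes. In the left panel the lower called members are at 1608 nt or less, and the line of medians climbs from -0.35 to 0.26.

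Genes that work with these members were taken from a list of 56, of which 54 were in the table and 52 were tested. In microplastics minus control 7 were higher and 13 lower, or 38.5%, beside the background of 24.3%; in taurine minus microplastics 12 were higher and 3 lower, or 28.8%, beside 14.2%. In taurine minus control none was called by edgeR, limma-voom or DESeq2. There 3 of 52 had an unadjusted edgeR p under 0.05, as had 5.69% of all tested genes. UBE2C, the ubiquitin-conjugating enzyme that serves the APC/C, had the smallest adjusted p in both. UBE2C stood at 496, 683 and 667 CPM in the taurine libraries, 176, 199 and 149.8 CPM in the microplastics libraries and 827, 696 and 564 CPM in the control libraries. The microplastics libraries were far below the others. UBE2C differed by log2 -1.99 ± 0.20 (SE, edgeR adjusted p = 6.08e-05) in microplastics minus control and 1.82 ± 0.20 (SE, edgeR adjusted p = 0.000187) in taurine minus microplastics. PPP2CB, the PP2A catalytic paralog, differed by -2.43 ± 0.28 (SE, edgeR adjusted p = 0.000163) and 2.13 ± 0.28 (SE, edgeR adjusted p = 0.000536) in the same order, CDK7, part of the kinase that activates CDKs, by -1.25 ± 0.16 (SE, edgeR adjusted p = 0.000257) and 1.19 ± 0.16 (SE, edgeR adjusted p = 0.000532), and CDKN1B, the CDK inhibitor p27, by -2.23 ± 0.30 (SE, edgeR adjusted p = 0.000411) and 1.65 ± 0.29 (SE, edgeR adjusted p = 0.00327). Another APC/C subunit, ANAPC16, differed by -1.53 ± 0.23 (SE, edgeR adjusted p = 0.000766) and 1.41 ± 0.23 (SE, edgeR adjusted p = 0.00193). Reads of PPP2CB could be exchanged with those of PPP2CA, so the PPP2CB values are uncertain as well.

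On the other side, the protein kinase A subunit PRKAR2A was higher with microplastics than in control by log2 1.59 ± 0.28 (SE, edgeR adjusted p = 0.0021). The cAMP phosphodiesterase PDE8A differed by 1.02 ± 0.18 (SE, edgeR adjusted p = 0.00219) and the anchoring protein AKAP1 by 0.83 ± 0.22 (SE, edgeR adjusted p = 0.0181). BTRC, the F-box protein that marks EMI1 and EMI2 for destruction, differed by 0.64 ± 0.17 (SE, edgeR adjusted p = 0.0182). RPS6KA1 (RSK1), a kinase downstream of MAPK, was lower with taurine than with microplastics alone, by -2.08 ± 0.55 (SE, edgeR adjusted p = 0.0266), and PDE8A by -0.60 ± 0.18 (SE, edgeR adjusted p = 0.0451).

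The direction of the weaker changes depended on the scaling. TMM factors ran from 1.21 to 1.25 in microplastics libraries and from 0.835 to 0.972 in the others, and scaling by library size alone put the median of all genes at log2 0.52, against 0.04, in microplastics minus control, and at -0.45, against -0.02, in taurine minus microplastics. On that scale 11 members were higher and 5 lower in microplastics minus control (background 30.3% and 6.63%), and 3 were higher and 6 lower in taurine minus microplastics (4.55% and 18.8%). CCNB1 (log2 -0.68, edgeR adjusted p = 0.0152), CKS1B (log2 -0.91, edgeR adjusted p = 0.00366), ARPP19 (log2 -0.84, edgeR adjusted p = 0.00829), ANAPC10 (log2 -0.82, edgeR adjusted p = 0.0027) and CDC26 (log2 -0.75, edgeR adjusted p = 0.00715) were the 5 lower members, so their call in microplastics minus control did not rest on the scaling.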

How the data were processed

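RNA of 9 libraries, 3 per group, came from bovine metaphase II oocytes. TRIzol was used for total RNA and the libraries followed BGI's protocol, per the labels. Aligner, counting tool and build were not given in the sources used here. In that file the authors deposited, per the file headers, unnormalized estimated counts for each transcript, beside FPKM and TPM values. A further deposited signal column per library, with the authors' group means, stayed unused. The counts were added over the 22590 transcript entries to 17852 genes and rounded; 16995 (95.2%) took a symbol from a RefSeq gene table. The totals were 21.17 to 22.74 M reads a library.

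Genes passed edgeR's filter (at least 10 counts, 15 in total) and were fitted with edgeR 4.0.16 in R 4.3.3 (TMM, robust quasi-likelihood test, all 9 libraries, 1 coefficient per group), with p-values adjusted by Benjamini-Hochberg over 13206 genes. An SE is the size of the log2 change divided by the square root of its F. limma-voom (limma 3.58.1) and DESeq2 1.42.0, other filters and scalings, left-out libraries, a replicate block, the compared groups alone and a fit with the length trend removed (13195 genes with an implied length) were alternatives. On simulated data for microplastics minus control (12950 genes), 50 genes were changed at each fold and the others were left unchanged. The test recovered 1 of 50 changed by 1.5-fold, 19 of 50 by 2-fold, 47 of 50 by 4-fold and 50 of 50 by 8-fold. There were 8 false calls. In the real comparison 24.3% of all tested genes were called, a far larger share than was changed in the simulation. The Benjamini-Hochberg adjustment depends on that share, so the recovered counts do not give the power of the real fits. Floors of 3 counts cover counting error only, as the labels name no molecular identifiers. TPM was used for levels between genes, and FPKM for the implied transcript length. The members, the gene lists and the tests were chosen with earlier results of these data known. Named genes were every member, with fold changes for those called and for CDK1, CCNB1, CCNB2, WEE2, CDC25B, MOS, MASTL, FBXO43, CDC20 and PDE3A in each comparison, and up to 4 per direction of the other pathway genes by adjusted p; other genes given with values were named after these were seen. The result of 1 other pathway gene is not reported here. The labels do not say whether same-numbered libraries belong together, and the fit did not pair them. The correlation of their deviations ran from -0.44 to 0.26. For different-numbered libraries of different groups it ran from -0.31 to 0.39, so these values do not settle pairing.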

Additional observations from a re-analysis of the deposited data

How the results depend on the processing

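Alternatives other than left-out libraries changed some counts by over 1.5 times. Scaling by library size only gave 11 members higher (otherwise 3), a member median of 0.37 (otherwise -0.12), 24 other pathway genes higher (otherwise 7) and 8 other pathway genes lower (otherwise 13) in microplastics minus control; 3 members higher (otherwise 10), 6 members lower (otherwise 2), a member median of -0.32 (otherwise 0.11) and 16 other pathway genes lower (otherwise 3) in taurine minus microplastics; a member median of 0.093 (otherwise 0.048) in taurine minus control. A filter of 5 CPM in 3 libraries gave 5 other pathway genes lower (otherwise 3) in taurine minus microplastics, with 712 of all 8908 genes lower. The DESeq2 Wald test gave 5 members higher (otherwise 3) in microplastics minus control, with 1634 of all 13206 genes higher. It gave 7 other pathway genes lower (otherwise 3) in taurine minus microplastics, with 880 of all 13206 genes lower. Limma-voom gave 7 other pathway genes lower (otherwise 3) in taurine minus microplastics, with 648 of all 13206 genes lower. The replicate block gave 1 member lower (otherwise 2) in taurine minus microplastics. A threshold of 0.1 gave 4 members lower (otherwise 2) and 7 other pathway genes lower (otherwise 3) in taurine minus microplastics. At that threshold 963 of all 13206 genes were lower (otherwise 545). Control 3 and taurine 3 left out gave 8 members higher (otherwise 3), a member median of -0.039 (otherwise -0.12) and 11 other pathway genes higher (otherwise 7) in microplastics minus control; 3 members higher (otherwise 0), 1 member lower (otherwise 0), a member median of 0.11 (otherwise 0.048) and 2 other pathway genes lower (otherwise 0) in taurine minus control. With each library left out in turn, the member median log2 in microplastics minus control was -0.12 to 0.032, other pathway genes higher in microplastics minus control were 2 to 8, members higher in taurine minus microplastics were 3 to 11, members lower in taurine minus microplastics were 1 to 3, other pathway genes lower in taurine minus microplastics were 0 to 4. Over all genes the same fits called 6.61% to 15.9% in taurine minus microplastics, 5.3% to 11.5% higher and 1.31% to 5.38% lower, and 12.7% to 30.8% in microplastics minus control. Genes named without a call changed sign with DESeq2 size factors CDC25B at -0.00051 in taurine minus control; with scaling by library size only CDK1 at 0.046 in microplastics minus control, CCNB2 at 0.14 in microplastics minus control, WEE2 at 0.11 in microplastics minus control, FBXO43 at 0.28 in microplastics minus control, CDC20 at 0.34 in microplastics minus control, PDE3A at 0.30 in microplastics minus control, CDK1 at -0.39 in taurine minus microplastics, WEE2 at -0.17 in taurine minus microplastics, FBXO43 at -0.35 in taurine minus microplastics, PDE3A at -0.36 in taurine minus microplastics, MASTL at 0.015 in taurine minus control; with a filter of 5 CPM in 3 libraries CDK1 at -0.025 in taurine minus microplastics; with the DESeq2 Wald test CDC25B at -0.00037 in taurine minus control; with the replicate block CDK1 at -0.011 in taurine minus microplastics; with control 3 and taurine 3 left out MASTL at 0.054 in taurine minus microplastics, FBXO43 at -0.078 in taurine minus microplastics, CCNB2 at -0.078 in taurine minus control, MASTL at 0.55 in taurine minus control, PDE3A at 0.14 in taurine minus control; with the length trend removed CDK1 at -0.14 in taurine minus microplastics, CDC25B at -0.027 in taurine minus control. With single libraries left out, signs also changed for MASTL in microplastics minus control (-0.064 to 0.49), CDC25B in taurine minus control (-0.10 to 0.20), MASTL in taurine minus control (-0.40 to 0.35), CDK1 in taurine minus microplastics (-0.18 to 0.23), PDE3A in taurine minus microplastics (-0.10 to 0.21), MASTL in taurine minus microplastics (-0.51 to 0.067), FBXO43 in taurine minus microplastics (-0.065 to 0.17), PDE3A in taurine minus control (-0.28 to 0.037), none of them called. With the replicate block, 2 members were higher and 7 lower in microplastics minus control (18.3% of all genes called, 6.53% higher and 11.8% lower) and 7 higher and 1 lower in taurine minus microplastics (9.79% of all genes called, 7.57% higher and 2.22% lower); the libraries share only a number, the block fit is no paired analysis, and the correlation of same-numbered deviations was -0.44 for control 3 and taurine 3. Depth limits ANAPC2, ADCY3, FZR1 and MAPK3 most. For all these shifts the cause was not tested.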

Other observations

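The deposited table gives transcripts, and 6 members have more than 1 transcript model in it, 21 in all, of which 17 were among 15609 transcripts tested. Both ARPP19 models were lower with microplastics than in control (15.9% of all transcripts were called). The 972-nt model differed by log2 -1.54 ± 0.29 (SE, edgeR adjusted p = 0.00877) and the 1743-nt model by -1.13 ± 0.21 (SE, edgeR adjusted p = 0.00863). In taurine minus microplastics (9.15% called) they differed by 1.02 ± 0.29 (SE, edgeR adjusted p = 0.0595) and 0.90 ± 0.21 (SE, edgeR adjusted p = 0.0309) in the same order. How the gene's reads were divided between the models is not given in the sources used here, so the results of both models are not independent.

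CCNB3 was divided between models in proportions that varied within groups. Its 3306-nt model took 59.4, 37.7 and 40.2% of the gene's reads in taurine 1 to 3, 40.2, 51.8 and 72.8% in microplastics 1 to 3 and 0.0191, 24.8 and 57.3% in control 1 to 3. Its 4127-nt model took 37.2, 49.3 and 54%, 54.8, 46.9 and 25.9% and 90.6, 65.7 and 39.8% in the same order. ANAPC1 had a 6175-nt model with 0, 100 and 0% of its reads in the taurine libraries, 0, 21.5 and 0% in the microplastics libraries and 0, 0 and 0% in the control libraries. The model shares of WEE2 were steady, with 80.2, 80.8 and 83.4% in its 2979-nt model in the taurine libraries, 75.7, 83.3 and 78.8% in the microplastics libraries and 77.9, 81.4 and 78.7% in the control libraries. A program assigned reads to these models, and how it did so is not given in the sources used here, so the shares of CCNB3 and ANAPC1 models are values and not measured isoform use.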
